A study of Mus musculus with 9 samples.

Results

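The 10 genes described here, Tfrc, Slc11a1, Slc11a2, Fth1, Ftl1, Slc25a37, Ireb2, Aco1, Ncoa4 and Hmox1, cover the uptake, storage and release of cellular iron. They were chosen by symbol from a deposited table of read counts with 24756 rows, and all 10 symbols were found there. Of these, 9 passed a filter on low counts that left 10215 genes to test, and Slc11a1 did not. The samples were 9 libraries of a mouse acute myeloid leukaemia line, made from foetal liver cells with retroviral vectors for MLL-AF9 (MSCV-Luc2-IRES-MLL-AF9, always expressed) and for FLT3-ITD (TRE-tight-DsRED-IRES-FLT3-ITD, expressed in doxycycline). MLL-AF9 is a leukaemia fusion gene, and FLT3-ITD is a mutant growth factor receptor that is active with no ligand. Cells were washed and kept without doxycycline for 24 h (OFF24) or 48 h (OFF48), to deplete FLT3-ITD, or were kept in 1 µg/mL doxycycline (ON), with 3 libraries in each group. MLL-AF9 was carried by the cells of all 3 groups, so the comparisons are about FLT3-ITD together with doxycycline itself, whose removal cannot be told apart from the loss of the kinase. The libraries came from a single cell line, and whether those of a group were grown apart is not in the labels. The p-values thus measure only how far these libraries spread, which may be technical.

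Cells take up iron bound to transferrin through the transferrin receptor, move it out of the endosome, deliver it to mitochondria for haem and iron-sulfur clusters, and store the surplus in ferritin, a hollow shell of heavy and light chains. Stored iron is recovered when the cargo receptor NCOA4 carries ferritin to the lysosome, and iron in haem is recovered by haem oxygenase. When iron is short, the iron regulatory proteins bind a hairpin in transcripts, the iron-responsive element (IRE). Binding in the 5′ UTR blocks translation of ferritin, and binding in the 3′ UTR protects the transferrin receptor transcript from decay. Transcript counts can thus register control of stability and not control of translation.

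The IREs are shown because they are the sequence feature by which ferritin, the transferrin receptor and the iron exporter ferroportin (Slc40a1, not among the 10 genes) are coupled. They were searched for in the annotated UTRs of 21877 protein-coding genes of GENCODE M21 on GRCm38 (mm10), on the transcribed strand, as a C and the loop CAGTGN with 5 bases between them. The last loop base had to be A, C or T, all 5 upper stem pairs had to form with G-U pairs allowed, and at least 4 of 6 lower stem pairs had to form. This pattern was found in 5′ UTRs of 7 genes (0.032%) and in 3′ UTRs of 11 genes (0.0503%), and it was found in 3 of the 10 iron genes. Each sequence is 29 bases, 5′ to 3′ on the transcribed strand, with the 6 loop letters in capitals.
Fth1 5′ UTR, chr19:9982732-9982760, plus strand: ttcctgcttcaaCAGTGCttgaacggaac
Ftl1 5′ UTR, chr7:45459779-45459807, minus strand: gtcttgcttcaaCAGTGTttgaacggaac
Slc40a1 5′ UTR, chr1:45925465-45925493, minus strand: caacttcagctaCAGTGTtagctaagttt
Tfrc 3′ UTR, chr16:32631219-32631247, plus strand: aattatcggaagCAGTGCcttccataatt
Tfrc 3′ UTR, chr16:32631598-32631626, plus strand: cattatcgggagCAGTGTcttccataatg
Tfrc 3′ UTR, chr16:32631663-32631691, plus strand: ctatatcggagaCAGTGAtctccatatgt
Tfrc 3′ UTR, chr16:32631710-32631738, plus strand: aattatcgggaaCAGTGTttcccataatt
The pattern matched at 4 places in the 3′ UTR of Tfrc, and elements that differ from it would be missed. The annotated UTR holds the element in 4 of 5 protein-coding transcripts of Fth1, 1 of 2 of Ftl1, 1 of 4 of Slc40a1 and 1 of 3 of Tfrc. A match is a description of the letters and not a measured binding site. With 1 upper stem mismatch allowed, 139 genes (0.635%) had a match, and the number among the iron genes stayed at 3.

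Library totals ran from 1329296 to 4038456 counts, and a floor of 3 counts, the limit a count of 0 allows, lay between 0.737 and 2.25 CPM, the count scaled to a common library total. These floors cover counting error only. Levels are CPM after TMM scaling of the libraries, given as mean ± SD over 3 libraries, while log2 fold changes carry ± SE. Since a 3′ method reads transcript ends, they are not scaled by transcript length and are not compared between genes. The Flt3 row had 2 to 10 counts per library and was not tested, and whether transgene reads were counted in it is not given in the sources used here, so it is no check of the FLT3-ITD depletion. All 14 markers of a myeloid leukaemia line were tested genes, and their sum ran from 5913 to 6273 CPM in OFF24, 7125 to 7791 CPM in OFF48 and 3725 to 3914 CPM in ON. The markers did not move as one. Mpo had means of 341 CPM in OFF24, 759 CPM in OFF48 and 69.1 CPM in ON, while Ctsg had 741, 690 and 723 CPM. The part of these marker changes in the iron gene results was not tested. Among 14 erythroid markers in the table none was tested, no library had more than 3 counts of any, and 7, among them Alas2, Epor, Slc4a1 and the Hbb genes, were at 0 throughout. Their sum was 0.836 to 1.57 CPM in OFF24, 0.671 to 1.5 CPM in OFF48 and 0.491 to 0.716 CPM in ON. Hepatocyte and lymphoid markers summed to at most 2.15 CPM in any library. In bulk RNA, fewer cells of a type and less RNA per cell cannot be told apart.

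Against ON, the transcripts of the mitochondrial iron importer Slc25a37 and of the ferritin cargo receptor Ncoa4 rose at both times, while Slc11a2, Fth1 and Hmox1 fell at both. Aco1 fell at 24 h, Tfrc rose and Ftl1 fell at 48 h, and Ireb2 passed the test in no comparison. By edgeR's quasi-likelihood test with Benjamini-Hochberg adjustment over all genes at 0.05, 6 of the 9 tested iron genes changed in OFF24 against ON, 2 higher and 4 lower, where 35.3% of all genes did (17.8% higher and 17.4% lower). In OFF48 against ON, 7 of 9 changed, 3 higher and 4 lower, beside 47.4% of all genes (23.4% higher and 23.9% lower). In OFF48 against OFF24, 3 of 9 changed, 1 higher and 2 lower, beside 21.1% of all genes (9.99% higher and 11.2% lower). The median log2 fold change of the 9 was -0.20, -0.21 and -0.13 in these comparisons, beside 0.031, 0.014 and 0.0050 over all genes. The OFF24 libraries lay wholly above or below the ON libraries for 6 of the 9 genes, beside 49% of all genes. This held for 7 of 9 in OFF48 against ON, beside 52.5%, and for 4 of 9 in OFF48 against OFF24, beside 38%. Both comparisons with ON use the same ON libraries. The iron genes were chosen with earlier results of these data known, so their counts beside the shares of all genes are no test of the set.

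**Figure D1:**
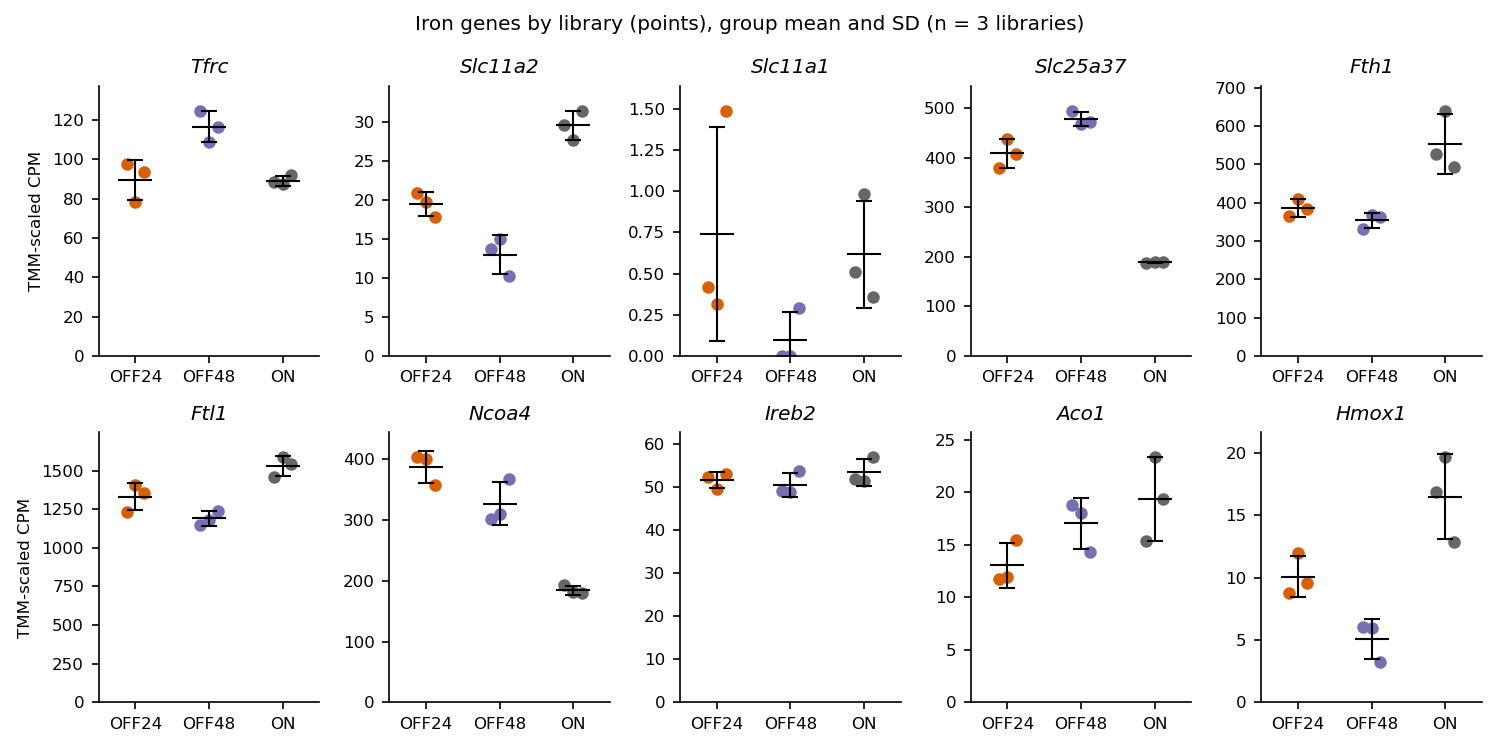
Level of each iron gene in TMM-scaled CPM (linear vertical axes from 0) in OFF24, OFF48 and ON. Points are libraries, and bars are the group mean and SD (n = 3). Slc25a37 and Ncoa4 are higher in every OFF24 and OFF48 library than in any ON library, and Fth1, Slc11a2 and Hmox1 are lower.

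Iron enters most cells with transferrin, and Tfrc encodes the receptor that brings it in (chr16:32608920-32632794, plus strand, ENSMUSG00000022797.16). Tfrc had 97.4, 78.2 and 93.5 CPM in OFF24, 125, 109 and 116 CPM in OFF48, and 88.2, 87.2 and 92.0 CPM in ON. The 3 OFF48 libraries lay above all 6 others, and the OFF24 libraries lay on both sides of ON. Tfrc rose 1.32-fold in OFF48 against ON, with a 95% interval of 1.12 to 1.55 and an adjusted p of 0.00652 in edgeR. In OFF24 against ON the fold was 1.01, with an interval of 0.855 to 1.18 (edgeR adjusted p = 0.967), and the sign of this difference varied with the scaling. Tfrc was also 1.31-fold higher in OFF48 than in OFF24, with an interval of 1.11 to 1.54 (edgeR adjusted p = 0.0180). That last call was lost without OFF24 replicate 2, the lowest library (edgeR adjusted p = 0.0984), and without OFF48 replicate 1 (edgeR adjusted p = 0.0658).

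Slc11a2 encodes DMT1, the transporter that carries iron out of the endosome once transferrin has released it (chr15:100387898-100425072, minus strand, ENSMUSG00000023030.16). It had 20.9, 19.8 and 17.9 CPM in OFF24, 13.8, 15.0 and 10.2 CPM in OFF48, and 29.6, 27.8 and 31.5 CPM in ON. No library of any group overlapped with another group, with OFF48 lowest, OFF24 between and ON highest. Slc11a2 was 0.659 times its ON level in OFF24, with an interval of 0.521 to 0.833 (edgeR adjusted p = 0.00689). In OFF48 it was 0.425 times its ON level, with an interval of 0.328 to 0.552 (edgeR adjusted p = 1.46e-05). The step of OFF48 below OFF24 was 0.646-fold with an interval of 0.488 to 0.855 (edgeR adjusted p = 0.0252), and it missed the threshold without OFF24 replicate 1 (0.0821), OFF24 replicate 2 (0.0779) or OFF48 replicate 3 (0.182), adjusted p in edgeR each time. Tfrc and Slc11a2, which serve the same route, thus had opposite signs in OFF48 against ON. The annotation gives Slc11a2 6 distinct 3′ ends, which the counts add up. The strict IRE pattern above had no match in its annotated UTRs. That pattern allows no extra unpaired base within a stem, so it cannot show that Slc11a2 lacks an IRE of another form. Gm5475 is annotated on the opposite strand within the gene.

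Slc11a1 encodes NRAMP1, which exports metal ions from the phagosomes of macrophages and neutrophils (chr1:74375195-74386062, plus strand, ENSMUSG00000026177.11). It had 1, 1 and 5 counts in the OFF24 libraries, 0, 0 and 1 in OFF48, and 2, 4 and 1 in ON. These are at or near the floor of 3 counts, so a change was not detectable at this depth. With no filter on low counts, the edgeR adjusted p was 0.941 for OFF24 against ON, 0.294 for OFF48 against ON and 0.350 for OFF48 against OFF24.

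Slc25a37 encodes mitoferrin-1, the carrier that brings iron across the inner mitochondrial membrane and is best known from red cell precursors (chr14:69241848-69285112, minus strand, ENSMUSG00000034248.7). Slc25a37 had 379.6, 438 and 407 CPM in OFF24, 495, 468 and 472 CPM in OFF48, and 188, 189.6 and 190.0 CPM in ON. Relative to its mean it had the smallest spread of the 10 in ON, with an SD of 0.940 CPM on a mean of 189, and all 6 OFF libraries lay far above that mean. A spread over 3 libraries is a rough estimate and does not show how closely the level is controlled. In OFF24 it rose 2.16-fold over ON, with an interval of 1.88 to 2.48 (edgeR adjusted p = 6.74e-08). In OFF48 it rose 2.53-fold over ON, with an interval of 2.20 to 2.91 (edgeR adjusted p = 1.68e-09). OFF48 libraries were all above OFF24 libraries, but the fold of 1.17 between them, with an interval of 1.02 to 1.34, did not pass (edgeR adjusted p = 0.0925). The erythroid markers given above were at or near 0 in the same libraries. Slc25a28, the paralogous mitoferrin-2, had 8.13 ± 1.31 CPM in OFF24, 10.1 ± 2.35 CPM in OFF48 and 9.71 ± 2.89 CPM in ON (SD, n = 3), with log2 fold changes of -0.22 and -0.0068 against ON and edgeR adjusted p of 0.553 and 0.985. Antisense genes are annotated within Slc25a37, and the strand setting of the counting is not given in the sources used here, so their reads cannot be told apart from its own.

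Fth1 encodes the ferritin heavy chain, which oxidises iron as it enters the shell (chr19:9980598-9985098, plus strand, ENSMUSG00000024661.7). Fth1 had 365, 409.6 and 384 CPM in OFF24, 332, 367 and 363 CPM in OFF48, and 526, 641 and 493 CPM in ON. Every OFF library was below every ON library, and the ON libraries spread more widely than the others. Fth1 was 0.697 times its ON level in OFF24, with an interval of 0.597 to 0.814 (edgeR adjusted p = 0.000945). In OFF48 it was 0.639 times its ON level, with an interval of 0.546 to 0.747 (edgeR adjusted p = 6.62e-05). Between OFF48 and OFF24 the fold was 0.916 with an interval of 0.783 to 1.07 (edgeR adjusted p = 0.447). The pseudogene Gm6977, which has no row of counts, matches the last 400 bases of Fth1 at 95% identity or more over at least 100 bases. How reads shared with it were counted is not given in the sources used here.

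Ftl1 encodes the ferritin light chain, which favours formation of the iron core (chr7:45457944-45459884, minus strand, ENSMUSG00000050708.16). Ftl1 had 1235, 1407 and 1354 CPM in OFF24, 1149, 1183 and 1239 CPM in OFF48, and 1459, 1588 and 1541 CPM in ON. All OFF libraries were below the ON libraries here too. In OFF24 the fold against ON was 0.871, with an interval of 0.764 to 0.994, and it did not pass (edgeR adjusted p = 0.0953). In OFF48 it fell to 0.778 times its ON level, with an interval of 0.682 to 0.888 (edgeR adjusted p = 0.00285). These values are uncertain, since the last 400 bases of Ftl1 match 11 other annotated genes at 95% identity or more over at least 100 bases. Its row also has the same counts in all 9 libraries as the row LOC100862446, so reads of near-identical copies cannot be told apart.

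Counted together, Fth1 and Ftl1 took 0.158 to 0.181% of all counts in OFF24 libraries, 0.146 to 0.162% in OFF48 and 0.198 to 0.225% in ON. The ratio of Fth1 to Ftl1 counts within a library was 0.290 ± 0.0060 in OFF24, 0.298 ± 0.0115 in OFF48 and 0.361 ± 0.0418 in ON (SD, n = 3). The highest OFF library had a ratio of 0.311 and the lowest ON library one of 0.320, so OFF and ON libraries did not overlap. This ratio is a description with no test.

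Ncoa4 encodes the receptor that binds ferritin and carries it to the lysosome, where its iron is released (chr14:32159865-32179855, plus strand, ENSMUSG00000056234.15). Ncoa4 had 404, 401 and 357 CPM in OFF24, 302, 310.5 and 367 CPM in OFF48, and 193, 182 and 179 CPM in ON. The OFF24 and OFF48 libraries overlapped with each other and stood well above ON. Ncoa4 rose 2.09-fold in OFF24 against ON, with an interval of 1.80 to 2.44 (edgeR adjusted p = 3.22e-07). In OFF48 it rose 1.77-fold over ON, with an interval of 1.52 to 2.06 (edgeR adjusted p = 2.89e-06). The lower mean in OFF48 than in OFF24, a fold of 0.846 with an interval of 0.728 to 0.982, did not pass (edgeR adjusted p = 0.106), but it did without OFF48 replicate 3 (edgeR adjusted p = 0.0420). As for Fth1, a pseudogene with no row of counts, here Gm6768, matches the last 400 bases of Ncoa4 at 95% identity or more over at least 100 bases.

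**Figure D2:**
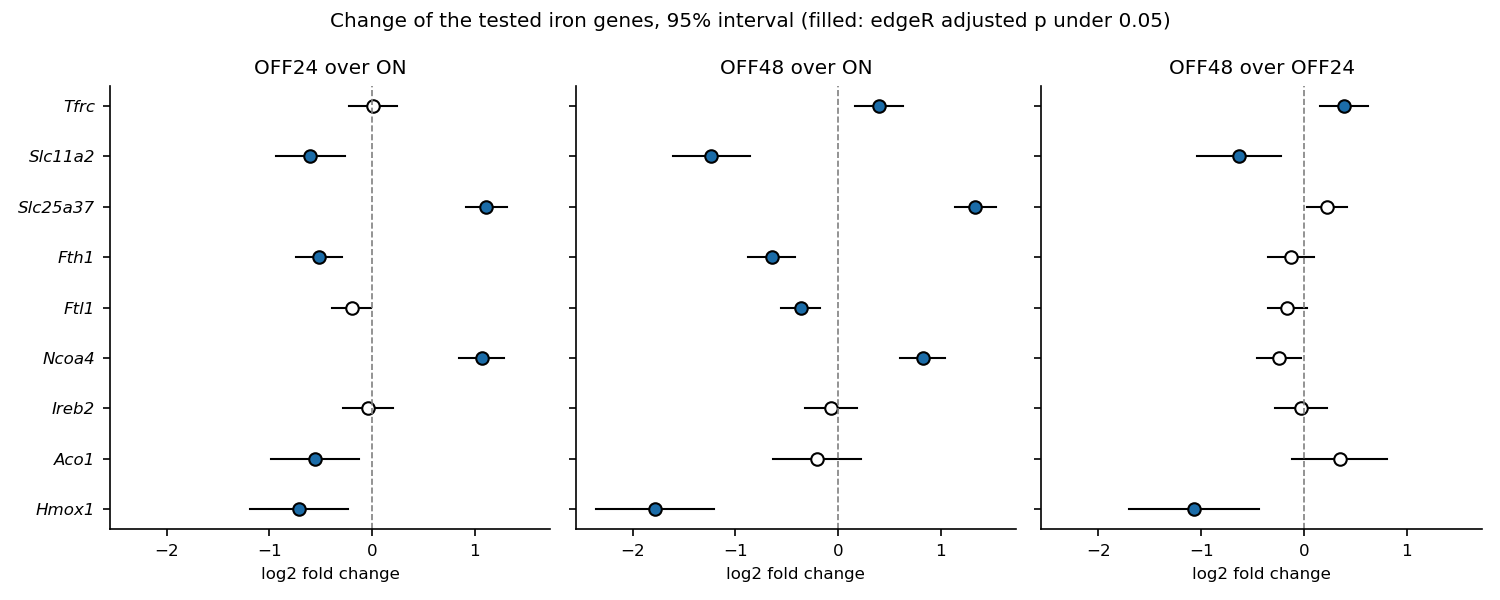
Log2 fold change of the 9 tested iron genes in OFF24 over ON, OFF48 over ON and OFF48 over OFF24 (horizontal axis), with 95% intervals as lines. Filled points passed the edgeR test at an adjusted p of 0.05: 6, 7 and 3 of 9. Slc25a37 and Ncoa4 stand to the right of 0 against ON at both times, and Hmox1 at 48 h lies farthest to the left.

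The iron regulatory proteins read the cell's iron and bind the IREs shown above. Ireb2 encodes IRP2, which is controlled mainly through its degradation (chr9:54863789-54912530, plus strand, ENSMUSG00000032293.8). Ireb2 had 52.3, 49.6 and 53.0 CPM in OFF24, 49.0, 48.7 and 53.6 CPM in OFF48, and 51.8, 51.3 and 56.9 CPM in ON. The groups overlapped throughout. The fold against ON was 0.970 in OFF24 with an interval of 0.820 to 1.15 (edgeR adjusted p = 0.800), and 0.954 in OFF48 with an interval of 0.803 to 1.13 (edgeR adjusted p = 0.668). Protein was not measured.

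Aco1 encodes IRP1, which is an aconitase when it holds an iron-sulfur cluster and binds RNA when it does not (chr4:40143081-40198338, plus strand, ENSMUSG00000028405.9). Aco1 had 11.7, 11.9 and 15.5 CPM in OFF24, 18.8, 18 and 14.3 CPM in OFF48, and 15.3, 23.3 and 19.3 CPM in ON. The OFF24 libraries were mostly low, with 1 of them just above the lowest ON library. Aco1 was 0.681 times its ON level in OFF24, with an interval of 0.505 to 0.916 and an edgeR adjusted p of 0.0418. This call was lost without ON replicate 2 (0.186), ON replicate 3 (0.0697), OFF24 replicate 1 (0.113) or OFF24 replicate 2 (0.127), as adjusted p in edgeR. OFF48 against ON gave a fold of 0.867 with an interval of 0.645 to 1.17 (edgeR adjusted p = 0.430).

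Hmox1 encodes haem oxygenase-1, which opens the haem ring and frees its iron (chr8:75093621-75100589, plus strand, ENSMUSG00000005413.8). Hmox1 had 8.78, 11.9 and 9.53 CPM in OFF24, 6.04, 6.0 and 3.21 CPM in OFF48, and 16.8, 19.7 and 12.9 CPM in ON. As for Slc11a2, no group overlapped with another, with OFF48 lowest and ON highest. Hmox1 fell in OFF48 to 0.290 times its ON level, with an interval of 0.195 to 0.433 (edgeR adjusted p = 2.73e-05). In OFF24 it was 0.609 times its ON level, with an interval of 0.437 to 0.849 (edgeR adjusted p = 0.0202), and this missed the threshold without ON replicate 2 (0.0854), OFF24 replicate 1 (0.0677) or OFF24 replicate 3 (0.0727), adjusted p in edgeR. OFF48 lay at 0.477 times the OFF24 level, with an interval of 0.307 to 0.740 (edgeR adjusted p = 0.0157), a call lost without OFF24 replicate 2 (0.0822) or OFF48 replicate 3 (0.137). Its counts were small, from 8 to 80 per library.

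Counts of these genes can also be set against each other within a library. The ratio of Ncoa4 to Fth1 counts was 1.01 ± 0.0913 in OFF24, 0.922 ± 0.0847 in OFF48 and 0.338 ± 0.0472 in ON (SD, n = 3). The ratio of Fth1 to Tfrc counts was 4.36 ± 0.782 in OFF24, 3.05 ± 0.362 in OFF48 and 6.22 ± 1.02 in ON. Every OFF library was below every ON library in the second ratio and above it in the first. These ratios restate the levels given above without any scaling between libraries, and they carry no test. Only their shifts between groups are read, since counts are not compared between genes.

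**Figure D3:**
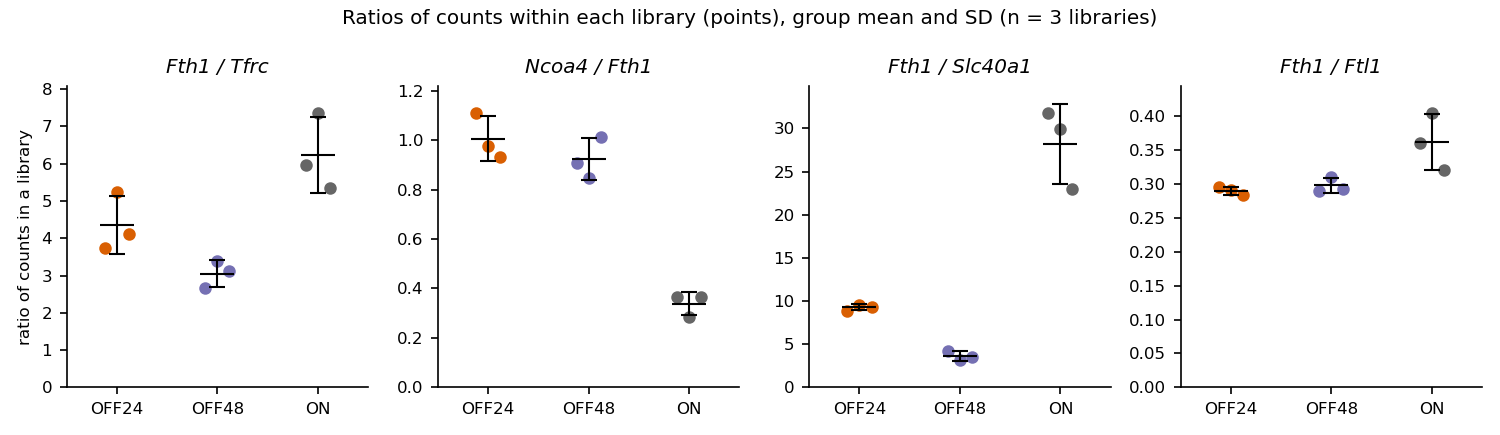
Ratios of counts within each library for Fth1 to Tfrc, Ncoa4 to Fth1, Fth1 to Slc40a1 and Fth1 to Ftl1 (linear vertical axes from 0) in OFF24, OFF48 and ON. Points are libraries and bars the mean and SD (n = 3). Ncoa4 to Fth1 is higher in OFF24 (1.01) than in ON (0.338), and Fth1 to Slc40a1 is lower in OFF48 (3.64) than in ON (28.2). Only such shifts between groups are read, not the size of a ratio.

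Other genes of iron handling were taken from 9 lists with 122 genes, of which 101 were tested. Together 15 rose and 26 fell in OFF24 against ON, 20 rose and 31 fell in OFF48 against ON, and 7 rose and 12 fell in OFF48 against OFF24. The background shares are those given above for all genes. These lists too were chosen with earlier results of these data known, so their counts are no test of a list.

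Among 8 tested genes of other import, reduction and export, 1 rose in OFF24, and 2 rose and 1 fell in OFF48, against ON. The OFF24 count of 1 was 2 without ON replicate 1, OFF24 replicate 2 or any of the OFF48 libraries. The gene that rose at both times was Slc40a1, ferroportin, the only known iron exporter of mammalian cells (chr1:45908068-45926523, minus strand). Slc40a1 had 41.0, 42.7 and 41.1 CPM in OFF24, 77.8, 117 and 104 CPM in OFF48, and 16.6, 21.4 and 21.5 CPM in ON, with no overlap between any groups. It rose 2.11-fold in OFF24 (edgeR adjusted p = 6.24e-05) and 4.97-fold in OFF48 (edgeR adjusted p = 8.71e-10) against ON, and 2.36-fold in OFF48 against OFF24 (edgeR adjusted p = 5.47e-06). The count of Fth1 relative to Slc40a1 within a library was 9.28 ± 0.352 in OFF24, 3.64 ± 0.578 in OFF48 and 28.2 ± 4.64 in ON. Ferroportin is abundant in macrophages, and the 12 macrophage markers summed to 27.6 to 35.5 CPM in OFF24, 52.3 to 70.3 CPM in OFF48 and 11.3 to 16.1 CPM in ON. Of these markers 2, Adgre1 and Vcam1, were tested, and 7, among them Marco, Spic, Timd4, Vsig4 and Cd5l, were at 0 in all libraries. Most of the sum came from the 2 tested genes. Vcam1 had means of 13.6 CPM in OFF24, 38.0 CPM in OFF48 and 5.88 CPM in ON, and Adgre1 had 16.9, 18.3 and 7.61 CPM. The part of these markers in the Slc40a1 result was not tested. Lcn2, which encodes lipocalin-2 of neutrophil granules and binds iron-loaded siderophores, had 149.5 ± 33.8 CPM in OFF48 and 49.7 ± 5.31 CPM in ON. Its log2 fold change was 1.60 ± 0.15 (SE, edgeR adjusted p = 1.01e-07). Trf, transferrin, was the gene that fell in OFF48, with 2.84 ± 0.756 CPM against 5.79 ± 0.392 CPM in ON (edgeR adjusted p = 0.0289). This call was lost in edgeR without ON replicate 1 (0.0651), ON replicate 2 (0.0666) or OFF48 replicate 1 (0.145), and with DESeq2 (0.0866), as adjusted p.

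Of 9 tested genes for iron chaperones and control of the iron regulatory proteins, 2 rose and 3 fell in OFF24 and 1 rose and 3 fell in OFF48, against ON. The OFF24 count of 5 dropped to 3 without ON replicate 2 and to 2 without OFF24 replicate 1. Fbxl5, the iron-sensing subunit of the ligase that degrades IRP2, had 77.0 ± 6.89 CPM in OFF48 and 122 ± 19.6 CPM in ON. Its log2 fold change was -0.68 ± 0.13 (SE, edgeR adjusted p = 0.000182). Zfp36l1, an RNA-decay factor, had 7.42 ± 0.912 CPM in OFF48 and 39.8 ± 4.77 CPM in ON, a log2 fold change of -2.38 ± 0.20 (edgeR adjusted p = 1.55e-08). Its paralogue Zfp36l2, chosen after its values were seen, was the gene of this list that rose in OFF48, with 290.4 ± 80.1 CPM in OFF48 and 138 ± 31.0 CPM in ON. The log2 fold changes of Zfp36l2 were 1.09 ± 0.20 in OFF48 and 0.72 ± 0.20 in OFF24 (edgeR adjusted p = 0.000654 and 0.0143), and the OFF24 call was lost without OFF24 replicate 1 (0.0507). Hif1a, a hypoxia factor that acts on iron genes, fell by 0.53 ± 0.11 in OFF24 and by 0.54 ± 0.11 in OFF48 on the log2 scale (edgeR adjusted p = 0.000690 and 0.000421). Pcbp2, a cytosolic iron chaperone and RNA-binding protein, rose by 0.40 ± 0.10 in OFF24 on the log2 scale (edgeR adjusted p = 0.00396), and its OFF48 value against ON was -0.14 (edgeR adjusted p = 0.262).

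Iron brought in by Slc25a37 goes into iron-sulfur clusters and haem. Of 20 tested genes for mitochondrial iron and iron-sulfur cluster assembly, 1 rose and 5 fell in OFF24 and 1 rose and 7 fell in OFF48, with medians of -0.10 and -0.35 on the log2 scale. Hspa9, the mitochondrial chaperone that hands on new clusters among other substrates, had 126 ± 7.09 CPM in OFF24, 97.6 ± 1.67 CPM in OFF48 and 299 ± 0.428 CPM in ON. Its log2 fold changes were -1.25 ± 0.095 and -1.61 ± 0.098 against ON (edgeR adjusted p = 1.52e-08 and 2.02e-10). Fdx1l, the ferredoxin of cluster synthesis, had log2 fold changes of -1.14 ± 0.21 in OFF24 and -1.07 ± 0.21 in OFF48 (edgeR adjusted p = 0.000298 and 0.000363), and Glrx5, which passes clusters on, had -0.83 ± 0.15 in OFF48 (edgeR adjusted p = 0.000191). In the cytosolic assembly list, 1 of 11 rose and 4 fell in OFF24, and 6 fell and none rose in OFF48. Fam96b, of the complex that loads clusters onto target proteins, fell in OFF24 by 0.87 ± 0.17 on the log2 scale and Ciapin1, an electron carrier of the pathway, by 0.78 ± 0.15 (edgeR adjusted p = 0.000471 and 0.000560).

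Haem genes were mixed. Among 11 tested genes of haem synthesis, 2 rose and 3 fell in OFF24, and 4 rose and 2 fell in OFF48. Fech, ferrochelatase, which inserts iron into the ring, had 40.9 ± 6.04 CPM in OFF24, 42.3 ± 3.13 CPM in OFF48 and 26.8 ± 4.47 CPM in ON (edgeR adjusted p = 0.00569 and 0.00267 against ON). Cpox, an enzyme of an earlier step, had a log2 fold change of -0.98 ± 0.15 in OFF48 against ON (edgeR adjusted p = 3.33e-05). The OFF24 count of 5 was 3 without ON replicate 2, ON replicate 3 or OFF24 replicate 1, and 1 without OFF24 replicate 3. In the list of haem transport and breakdown, 1 of 8 rose and 2 fell in OFF24, and 1 rose and 1 fell in OFF48. Its OFF24 count of 3 was between 0 and 1 without ON replicate 1, ON replicate 3 or any OFF24 replicate. Lrp1, a receptor for haem bound to hemopexin, had 8.37 ± 5.07 CPM in OFF48 and 3.18 ± 1.62 CPM in ON (edgeR adjusted p = 0.00369).

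Ferritin turnover by autophagy was the list with risers and no fallers against ON: 6 of 10 genes rose in OFF24 and 7 of 10 in OFF48, with medians of 0.39 and 0.49 on the log2 scale. Map1lc3b, a membrane protein of autophagosomes, had 173 ± 7.21 CPM in OFF24, 149 ± 26.1 CPM in OFF48 and 99.0 ± 9.36 CPM in ON. Its log2 fold changes were 0.81 ± 0.12 and 0.61 ± 0.12 (edgeR adjusted p = 4.15e-05 and 0.000386). Rb1cc1, a scaffold that starts autophagosomes, had 0.91 ± 0.14 and 0.79 ± 0.15 (edgeR adjusted p = 6.38e-05 and 0.000186). Tax1bp1, a cargo receptor that works with NCOA4, had 0.61 ± 0.097 and 0.48 ± 0.097 (edgeR adjusted p = 7.34e-05 and 0.000417). These genes serve autophagy of many cargoes and not ferritin alone.

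Hmox1 and the ferritin genes are known targets of the activator NRF2 and the repressor BACH1. Of 16 genes in that list, 1 rose and 5 fell in OFF24, and 4 rose and 6 fell in OFF48. Prdx1, a peroxidase, had 184 ± 15.6 CPM in OFF24, 115 ± 22.4 CPM in OFF48 and 306 ± 21.2 CPM in ON (edgeR adjusted p = 0.000105 and 3.09e-08 against ON). Txnrd1, thioredoxin reductase, and Slc7a11, the cystine transporter, had log2 fold changes of -0.89 ± 0.14 and -1.14 ± 0.23 in OFF24 (edgeR adjusted p = 0.000102 and 0.000881). In OFF48 against ON, Txnrd1 had -0.59 ± 0.14 (edgeR adjusted p = 0.00238) and Slc7a11 had -0.31 ± 0.22 (edgeR adjusted p = 0.258). Slc7a11 rose in OFF48 against OFF24 by 0.83 ± 0.25 on the log2 scale (edgeR adjusted p = 0.0244), a call lost without OFF24 replicate 1 (0.0883), OFF24 replicate 3 (0.0594) or OFF48 replicate 1 (0.0553) and with DESeq2 (0.0505). Gsr, glutathione reductase, was the gene that rose in OFF24 and was chosen after its values were seen. It had 1190.4 ± 74.6 CPM in OFF24, 1167 ± 378 CPM in OFF48 and 606 ± 160 CPM in ON, with log2 fold changes of 0.98 ± 0.25 and 0.95 ± 0.25 (edgeR adjusted p = 0.0126 and 0.0101), both calls lost with no filter on low counts (0.0685 and 0.0570). Nfe2l2, which encodes NRF2, had 64.6 ± 3.49 CPM in OFF48 and 35.4 ± 3.72 CPM in ON, a log2 fold change of 0.85 ± 0.13 (edgeR adjusted p = 2.18e-05). Bach1, which encodes the repressor, also rose in OFF48, with 74.5 ± 12.2 CPM against 42.3 ± 9.05 CPM in ON. The log2 fold change of Bach1 was 0.78 ± 0.16 (edgeR adjusted p = 0.000623). In the list of defence against lipid peroxides, which iron promotes, 4 of 8 fell in OFF24 and 5 of 8, Acsl4 among them, in OFF48, and none rose. Others did not pass at either time. Gpx4 had log2 fold changes of -0.048 and -0.12 in OFF24 and OFF48 (edgeR adjusted p = 0.838 and 0.575), and Aifm2 had 0.18 and 0.014 (edgeR adjusted p = 0.362 and 0.952). Slc3a2, the partner chain of Slc7a11, had log2 fold changes of -1.19 ± 0.12 and -0.76 ± 0.12 (edgeR adjusted p = 4.65e-07 and 3.35e-05), and Prdx6 had -0.47 ± 0.098 and -0.85 ± 0.10 (edgeR adjusted p = 0.00109 and 1.06e-06). Acsl4, which favours lipid peroxidation and stands in the list as its counterpart, had -0.87 ± 0.13 in OFF48 (edgeR adjusted p = 1.83e-05).

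**Figure D4:**
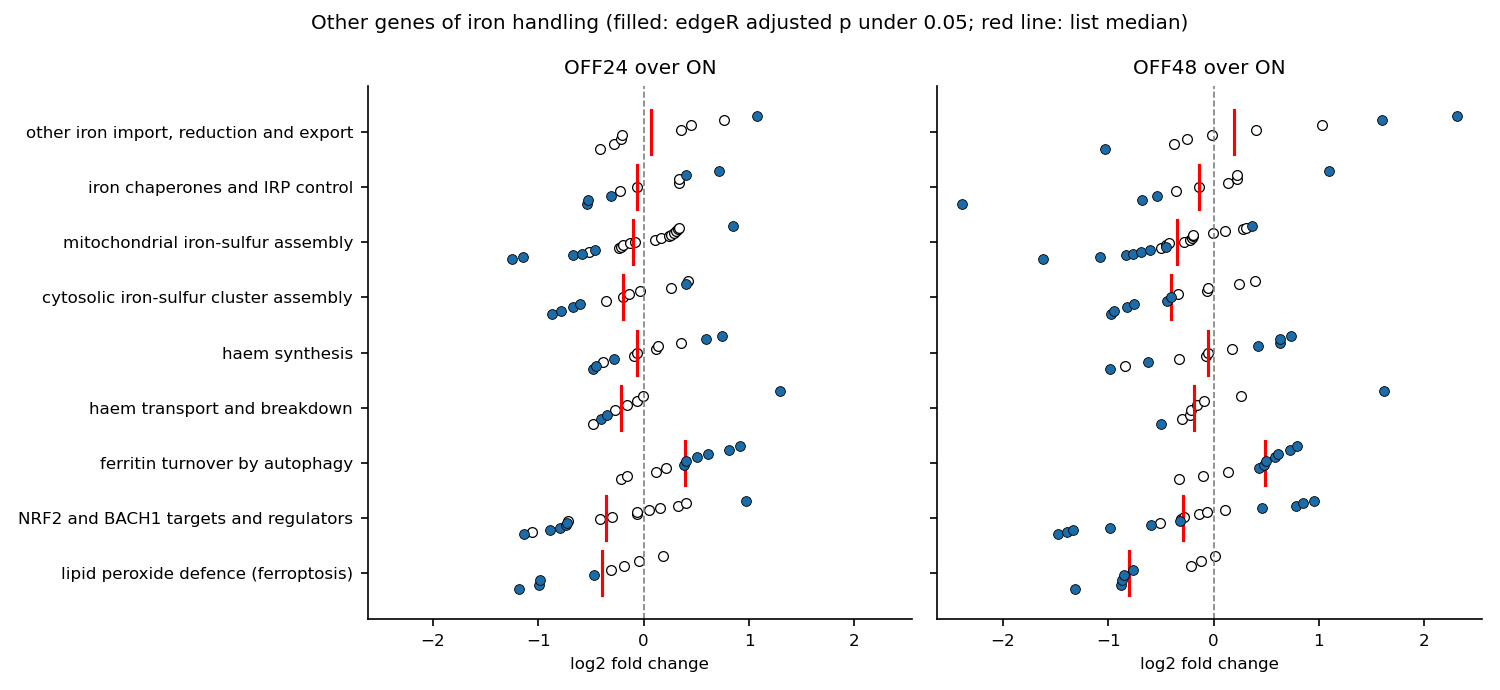
Log2 fold change over ON of the 101 tested genes in 9 lists of iron handling, at 24 h (left) and 48 h (right). Points are genes, filled where the edgeR adjusted p was under 0.05, and red lines are list medians. Ferritin turnover by autophagy has medians of 0.39 and 0.49, and lipid peroxide defence has -0.39 and -0.81. The latter list also holds Acsl4, which favours lipid peroxidation.

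Among the genes searched, those whose pattern was most like that of Tfrc were Slc36a4, Ctns and Txlna. The search was in the plane of the log2 fold changes against ON at 24 h and 48 h. It covered 5902 genes with a mean of at least 20 CPM over all libraries, without the iron genes above and without unnamed gene models. Slc36a4, Ctns and Txlna lay 0.0060, 0.0111 and 0.0131 from Tfrc, and 105 genes lay within 0.1. Psmd13, Stard4 and Pank3 were nearest to Fth1, at 0.0102, 0.0121 and 0.0155, with 77 genes within 0.1. These distances describe 3 group means. They are below the SE of the fold changes of Tfrc and Fth1, 0.11 at each time, so their order is not read. Slc11a1 was not tested and has no neighbours.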

How the data were processed

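The authors deposited a table of whole-number read counts per gene symbol for 9 libraries, not normalised and with replicates not pooled, and a table of log2 values with 10552 rows, which its name says were normalised with voom and limma, and which served only as an alternative. Per the labels' protocols, RNA was made into Lexogen QuantSeq 3′ libraries. Tools listed in the submitters' processing notes, with no roles, are HISAT2 2.0.4, featureCounts and Subread 1.5.0-p3, limma 3.42.2 and R 3.6.1, cutadapt 1.5, FastQC 0.11.2 and bcl2fastq 2.17.1.14, and the build is mm10. Not given in the sources used here are the annotation, strand setting and handling of multiply mapped reads. Multiply mapped reads could shift the counts of genes with near-identical copies, and 3′ reads count transcript ends.

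Groups came from sample titles. The test was that of edgeR 4.0.16, run in R 4.3.3 (filterByExpr, TMM, robust quasi-likelihood fit to all 9 libraries, 1 mean per group, 6 residual degrees of freedom, Benjamini-Hochberg over 10215 genes, threshold 0.05). The code was tested on simulated data. The biological coefficient of variation was 0.105. No replicates were within sampling noise of each other (chi-square over its degrees of freedom, 1.99 to 6.99), and each library was counted once. Alternatives used other scalings and filters, DESeq2 1.42.0, limma 3.58.1, a replicate block and each library left out. Deviations of same-numbered OFF48 and ON libraries from their group means correlated in all 3 pairs (r from 0.11 to 0.41, with 4 of 6 comparisons best with the own number). However, r was 0.19 for OFF48 replicate 1 with ON replicate 3 and 0.12 for OFF48 replicate 3 with ON replicate 1. It was 0.11 for replicate 1 of both groups. Pairing is thus not settled, and the labels do not say what a number marks. The p-values reported come from the fit with no block. In OFF48 against ON, the block changed no call of a named gene run under it. Shared 3′ ends were sought with BLAST 2.17.0 in GENCODE M21 transcripts. The members and lists were chosen with earlier results of these data known. Named genes are all members, up to 3 tested genes per list and comparison with the smallest p, of which those that bear on the text are given, and the 3 genes nearest to Tfrc and Fth1. A gene that this rule named is not reported here. The SE of a log2 fold change is its size over the square root of the F statistic.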

Additional observations from a re-analysis of the deposited data

Results flagged for a closer look

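The changes of 3 iron genes against ON differed between the times, by the test of OFF48 against OFF24 in edgeR. Tfrc was higher in OFF48 than in OFF24 by 0.39 on the log2 scale, with an SE of 0.11. Slc11a2 had a log2 fold change of -0.63 with an SE of 0.19, and Hmox1 one of -1.07 with an SE of 0.30. In all 3 genes the OFF48 and OFF24 libraries did not overlap, which was so for 38% of all tested genes. Leaving out OFF24 replicate 2 alone ended all 3 calls, at adjusted p of 0.0984, 0.0779 and 0.0822.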

How the results depend on the processing

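Of 513 values of the 9 tested iron genes under 19 alternative settings, 475 kept their direction and their side of the threshold, 20 lost the call, 3 gained it and 15 changed sign. All sign changes were in uncalled differences. Tfrc in OFF24 against ON, 0.0074 as reported, was -0.0057 with RLE scaling, -0.0096 with library size scaling, -0.029 with no filter, -0.0057 with DESeq2 and -0.00014 with the groups compared alone. It ran between -0.066 and 0.084 without single libraries. Ireb2 in OFF48 against OFF24 ran between -0.059 and 0.020 without single libraries, above 0 without OFF24 replicate 3 (0.013), OFF48 replicate 1 (0.020) or OFF48 replicate 2 (0.010). Without single libraries, 4 to 6 iron genes were called in OFF24 against ON, 7 in OFF48 against ON, and 0 to 3 in OFF48 against OFF24, with 0 without OFF24 replicate 2. DESeq2 lost Aco1 (0.0961) and Hmox1 (0.0665) at 24 h and Slc11a2 between the times (0.0859), and Aco1 was also lost with upper quartile scaling (0.0576) and limma-voom (0.0522), and Hmox1 with the deposited log2 values (0.0670), as adjusted p. The deposited log2 values added Slc25a37 between the times (0.0353). Over all genes, 2846 to 3900, 4180 to 4835 and 1506 to 2410 were called without single libraries. With the replicate number as a block, 4200, 5189 and 2701 of all genes and 7, 7 and 3 iron genes were called, with Ftl1 in OFF24 added (adjusted p = 0.0453). The block also moved the NRF2 and BACH1 list in OFF24 against ON to 10 called (3 higher, 7 lower), 6 as reported, and changed no other call of a named gene and no other list count by over 1.5 times. In no comparison were the libraries taken as paired in the values reported. Of the same-number correlations of OFF24, 1 of 3 was over 0.1 with OFF48 and 1 of 3 with ON, and 3 of 6 and 4 of 6 comparisons were best with the own number. The correlations of OFF24 with ON ran from 0.036 to 0.20, and 4 of 6 is also the score of OFF48 with ON. Pairing is therefore not settled for OFF24 with ON or for OFF48 with ON. For the other named genes, 70 of 1406 values lost the call and none changed sign, and 35 of 513 list counts moved by over 1.5 times; these recalculations were chosen after seeing the data. The cause of the lost calls was not tested. Slc11a1 did not pass the filter on low counts.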
